A study of Mus musculus with 2 samples.

Results

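Mir489, Mir653 and Mir31 are 3 miRNA genes tied to satellite cells, the stem cells that lie between a muscle fibre and its basal lamina. They were chosen by name. Each was found by its Ensembl identifier among the 1973 miRNA genes counted in small RNA libraries of skeletal muscle from newborn mice, and all 3 had counts in both libraries. Total RNA of strain B6NCrl was used, taken on the day of birth (postnatal day 0) from 2 littermates, called pup 1 and pup 2, with sex not collected. No treatment or genotype is labelled, so both libraries form 1 group and no contrast between conditions exists. RNA under 30 bases long was the labelled size range. The tissue was not sorted, so fewer cells of a type and less RNA per cell cannot be told apart in any value below.

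Satellite cells of adult muscle rest outside the cell cycle until injury, and in newborn muscle many of their precursors still divide. Calcr, the calcitonin receptor gene that hosts Mir489 and Mir653, is a known marker of resting adult satellite cells. A miRNA represses messenger RNAs that pair with its seed, the short stretch near its 5′ end. In adult satellite cells miR-489 is known to hold back Dek, a chromatin protein of dividing progeny, and miR-31 to hold back translation of Myf5, a myogenic transcription factor. The role of miR-653 is less well described.

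Mature sequences are shown because the seeds set these miRNAs apart from one another. They came from RefSeq (GRCm38.p6, where all 3 genes matched by symbol), are written 5′ to 3′, and have the seed (bases 2 to 8) in capitals.
miR-489-5p: uGUCAUAUgugugaugacacuuucu
miR-489-3p: aAUGACACcacauauauggcagc
miR-653-5p: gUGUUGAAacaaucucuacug
miR-653-3p: uUCACUGGaguuuguuucagu
miR-31-5p: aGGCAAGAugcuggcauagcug
miR-31-3p: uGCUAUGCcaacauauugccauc
miR-425-5p: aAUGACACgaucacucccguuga
The 6 mature sequences of the 3 genes have 6 different seeds. Among 1738 mature mouse miRNAs searched, the seed of miR-489-3p was also found in 1 other, miR-425-5p, and the other 5 seeds were found in no other gene of that table. Although Mir489 and Mir653 share a host gene, they share no seed. The mature sequences are 21 to 25 bases long, with a G and C content of 36% in miR-489-5p and 54.5% in miR-31-5p.

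The hairpins show what a deposited count covers, since it is given per gene and does not separate the arms. Both mature arms are in capitals.
Mir489 hairpin: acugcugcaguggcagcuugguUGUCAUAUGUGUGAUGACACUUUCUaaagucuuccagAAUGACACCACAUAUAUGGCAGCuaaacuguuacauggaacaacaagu
Mir653 hairpin: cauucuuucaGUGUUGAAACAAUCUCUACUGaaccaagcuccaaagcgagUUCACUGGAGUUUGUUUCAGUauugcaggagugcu
Mir31 hairpin: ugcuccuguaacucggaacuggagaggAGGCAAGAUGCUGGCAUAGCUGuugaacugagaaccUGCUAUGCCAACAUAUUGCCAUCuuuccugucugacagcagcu
None of the 3 shares a stretch of 20 bases with another of 2201 miRNA genes in GENCODE M21. Multimapping reads, 30.2% and 29.9% of all reads in pups 1 and 2, were listed apart from gene counts. By this comparison with miRNA genes alone, the 3 genes have no near-identical copy that could draw their reads away.

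Mir489 (ENSMUSG00000070107) lies at chr6:3721897-3722003 and Mir653 (ENSMUSG00000076357) at chr6:3721301-3721385, both on the minus strand of mm10. A gap of 511 bases separates them. Both lie in an intron of Calcr (chr6:3685680-3764714, minus strand), intron 2 or 4 depending on the transcript. None of the 5 annotated Calcr transcripts has an exon at either gene. The nearest exon of any of them is 920 bases from Mir489 and 1538 bases from Mir653. Mir31 (ENSMUSG00000065408) lies at chr4:88910557-88910662 on the minus strand, inside the non-coding gene AL805899.1 (chr4:88909855-88938521), whose single annotated transcript has an exon there. Within 50 kb, Mir489 and Mir653 had only each other as listed miRNA genes, and Mir31 had none.

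All 3 genes were low. Together they held 213 of 3754895 own-strand counts in pup 1, or 0.00567% (95% interval 0.00494 to 0.00649, exact Clopper-Pearson). In pup 2 they held 277 of 5133949, or 0.00540% (0.00478 to 0.00607). The combined shares of the pups had overlapping intervals. A gene with 0 counts could still hold up to 3, which is 0.799 CPM (counts scaled by the library's own-strand total) in pup 1 and 0.584 CPM in pup 2, and every one of the 6 values lay above this. Intervals and this limit cover counting error only, since the tables carry no molecular identifiers.

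Mir489, whose miRNA is known to keep adult satellite cells quiescent, had the lowest level of the 3. It had 9 counts in pup 1 (95% Poisson interval 4.12 to 17.1) and 10 in pup 2 (4.80 to 18.4), which are 2.40 and 1.95 CPM. The mean was 2.17 ± 0.318 CPM (SD, n = 2). The pups lie inside each other's counting intervals, and at this depth the level is known only to within about that range. Mir653 had 25 counts in pup 1 (16.2 to 36.9) and 56 in pup 2 (42.3 to 72.7), or 6.66 and 10.9 CPM, with a mean of 8.78 ± 3.01 CPM (SD, n = 2). Pup 2 was the higher for this gene, and the counting intervals in CPM (4.31 to 9.83 and 8.24 to 14.2) still overlapped. Mir31 had 179 counts in pup 1 (153.7 to 207.2) and 211 in pup 2 (183.5 to 241.5), or 47.7 and 41.1 CPM, with a mean of 44.4 ± 4.65 CPM (SD, n = 2). Its CPM intervals, 40.9 to 55.2 and 35.7 to 47.0, overlapped as well. Counts on the opposite strand were 0 for all 3 genes in both pups.

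**Figure D1:**
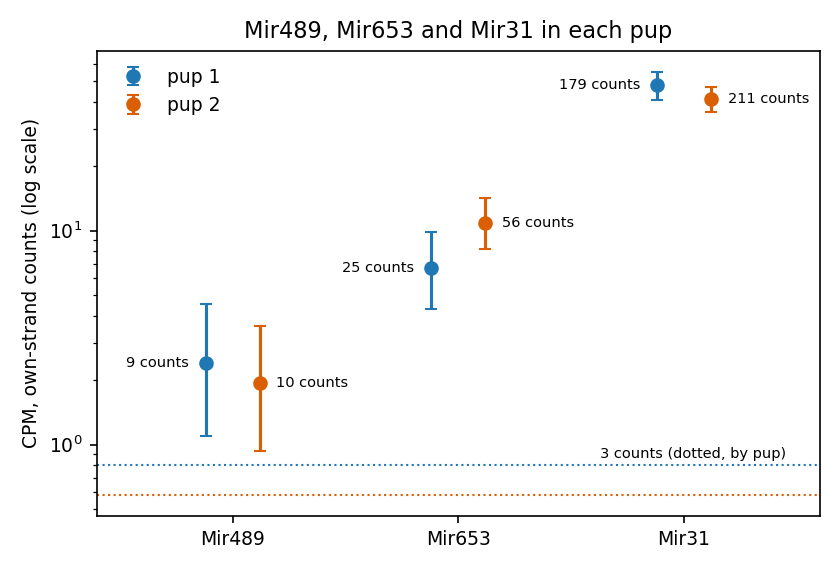
Own-strand CPM (log axis) of Mir489, Mir653 and Mir31 in pup 1 and pup 2, with 95% Poisson intervals as bars and raw counts beside the points. Dotted lines mark 3 counts in each library, and all 6 points lie above them, from 1.95 CPM for Mir489 in pup 2 to 47.7 CPM for Mir31 in pup 1.

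Levels were compared between genes after division by the length of the annotated gene. With RNA under 30 bases labelled, a read covers only part of a gene. Whether counts grow with annotated length was not tested, so values on this scale depend on the annotation. Per 100 bases, Mir31 had 41.9 ± 4.38 CPM, Mir653 had 10.3 ± 3.54 CPM and Mir489 had 2.03 ± 0.297 CPM (SD, n = 2). The order Mir31, Mir653, Mir489 was the same in both pups, and no 2 neighbours in it overlapped between pups. On this scale Mir31 was 20.1 times Mir489 in pup 1 and 21.3 times in pup 2, and 5.74 and 3.02 times Mir653. Within Calcr, Mir653 was 3.50 times Mir489 in pup 1 and 7.05 times in pup 2. In raw counts Mir489 made up 26.5% of the pair in pup 1 (exact interval 12.9 to 44.4) and 15.2% in pup 2 (7.51 to 26.1). The balance of the pair was not tested between pups. How well a small RNA library captures each mature sequence was not measured, so the order is one of reads.

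Among 652 detected genes with a known length, Mir31 ranked 214, Mir653 ranked 266 and Mir489 ranked 345 by mean CPM per 100 bases. Thus 67.2%, 59.2% and 47.1% of detected genes lay below them. By mean CPM without division by length their ranks among all 1973 genes were 207, 265 and 323. The levels fall steeply between these ranks, and Mir206, the muscle miRNA gene with the highest level, had 114140 ± 7508 CPM per 100 bases (SD, n = 2).

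**Figure D2:**
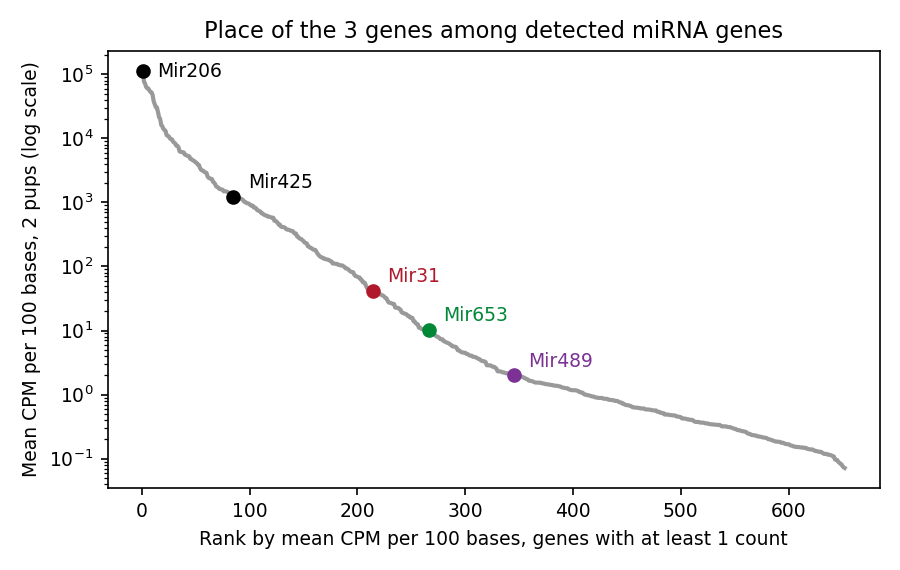
Mean CPM per 100 bases of the 2 pups (log axis) against rank for detected miRNA genes, with Mir31, Mir653 and Mir489 marked at ranks 214, 266 and 345. Mir425, whose miR-425-5p has the seed of miR-489-3p, stands at rank 85, and Mir206 is shown for the upper end.

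Mir425 carries the only other miRNA with a seed of these genes, and it was far more abundant than Mir489. It lies at chr9:108568777-108568861 (plus strand), where the non-coding gene 4833445I07Rik has an exon. It had 4438 counts in pup 1 and 4603 in pup 2, or 1182 and 897 CPM. Per 100 bases this was 621 times Mir489 in pup 1 and 579 times in pup 2, where Mir489 had only 9 and 10 counts. Division by the annotated lengths, 85 bases for Mir425 and 107 for Mir489, raises these ratios above those of the counts. Of the reads from the genes with the seed AUGACAC on 1 arm, nearly all therefore came from Mir425 in each pup. The counts do not separate arms, so the share that carries this seed is not known for either gene.

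The known target pairs were looked up in the reference because they show the letters that a seed pairs with. No messenger RNA was measured here. The letters GTGTCAT, complementary to the seed of miR-489-3p and miR-425-5p, occur 2 times in the longest annotated 3′ untranslated region of Dek (1286 bases, GENCODE M21, transcript strand searched). Matches are in capitals, at chr13:47085357-47085378 and chr13:47085327-47085348 (mm10, minus strand).
Dek site 1: gctttgccctcaaaGTGTCATc
Dek site 2: tgtgttaactctaaGTGTCATa
The letters TCTTGCC, complementary to the seed of miR-31-5p, occur 1 time in that of Myf5 (1112 bases), at chr10:107483896-107483917 (minus strand).
Myf5 site: ggttgtaaatactgTCTTGCCa
Single matches of this kind are common. GTGTCAT was found at least 1 time in 8.86% of 3083 regions of similar length to that of Dek. TCTTGCC was found at least 1 time in 9.71% of 3059 regions of similar length to that of Myf5. How many regions hold 2 matches, as that of Dek does, was not counted. A match is a description of letters only.

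The pups were compared gene by gene over 373 miRNA genes with at least 10 counts in total. Each log2 ratio of pup 2 over pup 1 used TMM scaling, and an exact binomial test with Benjamini-Hochberg adjustment over all 373 genes asked whether it exceeded counting error. This compares 2 libraries, not conditions. Under the rule of an adjusted p below 0.05 and at least a 2-fold difference, 0 of the 3 genes were called, against 5.09% of all tested genes (4.56% higher in pup 1, 0.536% higher in pup 2). At an unadjusted p under 0.05 it was 1 of the 3, Mir653, against 52.3% of all tested genes.

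Mir653 was higher in pup 2 by a log2 ratio of 0.83 (95% interval 0.14 to 1.59), with an adjusted p of 0.0293 by the exact binomial test. This difference exceeded counting error without reaching 2-fold. Of all tested genes 49.1% exceeded counting error in this sense, and 11.5% had a larger absolute ratio than Mir653. Low counts spread more. The median absolute log2 ratio was 0.50 for the 121 tested genes under 100 counts in total, Mir653 among them, and 0.32 over all. With scaling by total counts alone the ratio of Mir653 was 0.70 and the adjusted p 0.0823 (exact binomial test). With no minimum count the adjusted p was 0.0507 by the same test. Mir489 had a log2 ratio of -0.18 (-1.62 to 1.31, adjusted p = 0.883, exact binomial test). Its interval takes in differences of more than 2-fold either way, so its 19 counts give no direction. Mir31 had a log2 ratio of -0.08 (-0.38 to 0.21, adjusted p = 0.688, exact binomial test). Its interval is the narrowest of the 3 and excludes a 2-fold difference by counting error, while 83.4% of tested genes had a larger absolute ratio.

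**Figure D3:**
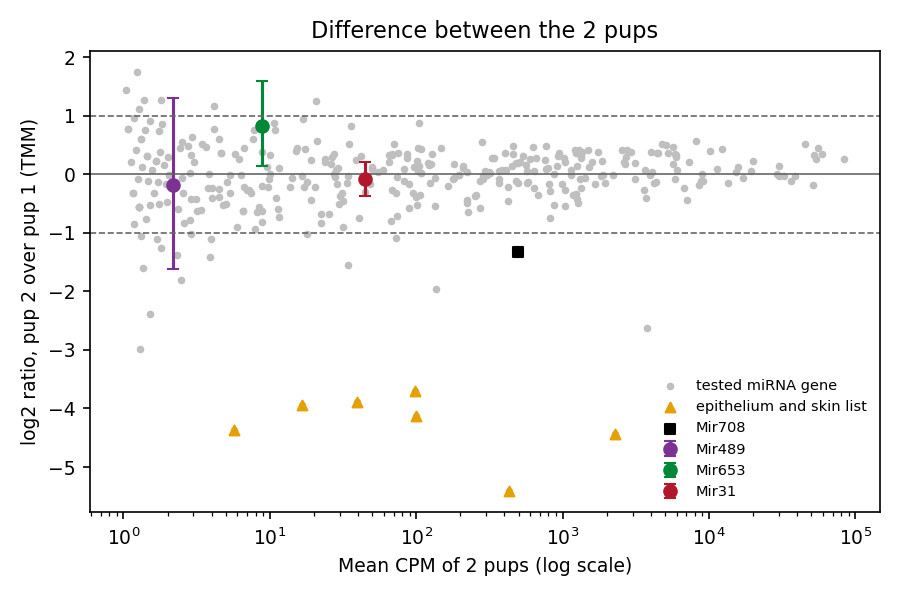
Log2 ratio of pup 2 over pup 1 against mean CPM (log axis) for 373 tested miRNA genes, with 95% intervals for the 3 genes and dashed lines at 2-fold. Mir31 (-0.08) and Mir489 (-0.18) lie near 0 and Mir653 at 0.83, while the epithelium and skin genes (triangles) and Mir708 (square) lie below the lower dashed line.

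The libraries stood apart in markers of some other tissues. All 7 genes of the epithelium and skin list were called higher in pup 1, against 4.56% of all tested genes. Their summed level was 5688 CPM in pup 1 and 230 CPM in pup 2, and their median log2 ratio was -4.13. The 2 cartilage genes summed to 7917 and 1952 CPM, and 1 of them was called. This was Mir140, with 6539 and 966 CPM and a log2 ratio of -2.63. Mir455 had 1377 and 986 CPM, a log2 ratio of -0.35, and was not called. Lists for endothelium, blood and nerve had 0 called genes, beside 5.09% of all tested genes. Their medians lay nearer 0: -0.03 for the endothelial gene Mir126a, -0.12 for 2 red blood cell genes, -0.15 for 4 white blood cell genes and 0.06 for the 1 tested nerve gene, Mir338. The 2 red blood cell genes went opposite ways beyond counting error, Mir451a at -0.57 and Mir144 at 0.34. Of the 4 white blood cell genes 1, Mir223, differed beyond counting error, at -0.46. A further gene of that list, Mir142, was not counted. Counts on the strand opposite Mir142b, at its place, were 852 CPM in pup 1 and 599 CPM in pup 2. Crediting them gave a white blood cell median of -0.30. Of 7 counted nerve genes 4 had 0 counts in both pups, so the nerve value rests on Mir338 alone. None of the 3 described genes had a log2 ratio near the epithelium and skin median. Mir31, which is also known from skin, had 47.7 and 41.1 CPM, and Mir653 had its higher value in pup 2. The part of skin or cartilage in the counts of the 3 genes was not tested. Of 8 measured striated muscle genes, all had values higher in pup 2, as had 50.7% of all tested genes. Beyond counting error this held for 5 of the 8, and with at least a 2-fold difference for 0, against 25.7% and 0.536% of all tested genes. The summed level was 81335 and 89353 CPM, and 5 of the 8 share a 20-base stretch with a further miRNA gene, which makes those counts uncertain. A further gene of the striated muscle list, Mir1a-2, was not counted. Counts on the strand opposite Mir1b, at its place, went the other way in CPM, with 15.71 in pup 1 and 14.02 in pup 2. Crediting them gave a striated muscle median log2 ratio of 0.27, against 0.31 in the main setting. Mir653 had its higher value in pup 2, and the part of tissue composition in that was not tested.

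Other miRNA genes linked to satellite cells are the background for these levels. The quiescence list held 7 genes, of which 6 were among the counted genes. Mir708, a further miRNA gene linked to satellite cell quiescence, had 2714 counts in pup 1 and 1352 in pup 2, or 723 and 263 CPM. It was the only one of the 6 counted list members called, beside 5.09% of all tested genes. Its log2 ratio was -1.32 (-1.42 to -1.23, adjusted p = 2.46e-178, exact binomial test). It was higher in the pup with the higher epithelial and cartilage markers, whose part in this was not tested. Mir708 also shares 20 bases with the annotated gene Gm23134, so its count is uncertain.

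Mir195a, another gene of the quiescence list, had 2964 and 2910 counts, or 789 and 567 CPM, and was higher in pup 1 by less than 2-fold (log2 ratio -0.35). Over the 6 genes the median log2 ratio was -0.05, beside 0.01 over all 373 tested genes, with 3 higher and 3 lower in value. Per 100 bases, 5 of the 6 lay above Mir31 in both pups, from Mir30b at 112 ± 6.10 to Mir127 at 76457 ± 5104 CPM. The exception was Mir30c-1 at 26.8 ± 1.09 CPM (SD, n = 2), which lay above Mir653 in each pup. Mir30c-1 shares 20 bases with Mir30c-2, so its count may leave out multimapping reads. Mir489 thus had the lowest level per length of these 6 genes and the 3 described here.

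**Figure D4:**
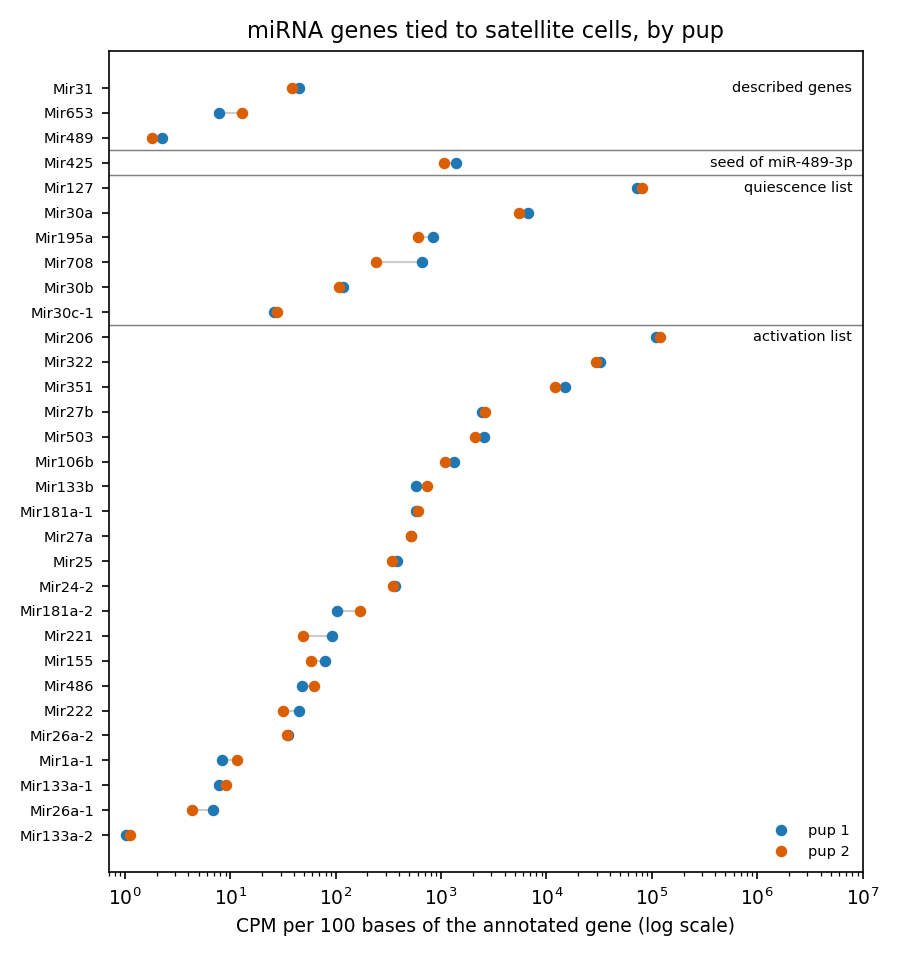
CPM per 100 bases of the annotated gene (log axis) in pup 1 and pup 2 for the 3 genes, for Mir425 and for the quiescence and activation lists. Mir489 lies lowest but for Mir133a-2, and Mir708 shows a wide gap between pups (663 and 242).

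The list for satellite cell activation and muscle differentiation held 23 genes, of which 21 were counted and tested. Of these, 0 were called, beside 5.09% of all tested genes. Beyond counting error 7 were higher in pup 2 and 4 in pup 1, beside 25.7% and 23.3% of all tested genes, with a median log2 ratio of 0.10, which was -0.03 with scaling by total counts. Per 100 bases 15 of the 21 lay above Mir31 in both pups and 6 below it. Of these 6, 5 share 20 bases with another miRNA gene, as do 7 of the 15, so reads of theirs may stand among the multimapping ones and the tally is uncertain. Only Mir133a-2, at 1.07 ± 0.0703 CPM per 100 bases (SD, n = 2), lay below Mir489. Mir133a-2 is among those 5. Mir27b, which is known to hold back the transcription factor Pax3 in muscle progenitors, had 2539 ± 124 CPM per 100 bases (SD, n = 2). Mir486, which is known to hold back Pax7, the transcription factor that marks satellite cells, had 55.3 ± 10.2 CPM per 100 bases. Both share a 20-base stretch with a further miRNA gene, which makes these values, and any likeness of Mir486 to Mir31, uncertain.

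The genes closest in level over the 2 libraries were taken by Euclidean distance of log2(CPM + 1). With 2 libraries such closeness is a likeness of level only. Mir489 was matched exactly by Mir5103 (9 and 10 counts), followed by Mir3062 and Mir344g (both 8 and 10 counts). Mir653 was nearest to Mir760 (23 and 49 counts), Mir1a-1 (24 and 46) and Mir504 (30 and 49). Mir31 was nearest to Mir155 (194 and 196 counts), Mir877 (199 and 222) and Mir187 (190 and 251). Mir155, known from white blood cells, is on the activation list as well.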

How the data were processed

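Small RNA libraries from 2 pups were analysed. Each deposited table, made library by library on mm10 with annotation M4 per the deposited descriptions, held whole-number counts per miRNA gene. The aligner and counter are not given in the sources used here. In every gene the first count column equalled the sum of the other 2, which were read, from layout and totals, as own strand and opposite strand. Own-strand counts were used. The 4 leading lines stayed out of library sizes. In pups 1 and 2 they held 30.2% and 29.9% multimapping, 9.66% and 10.1% unmapped and 7.56% and 8.44% reads outside the listed genes of that strand. Symbols, positions and hosts came from GENCODE M21 (1894 of 1973 genes matched), and miRNA sequences from RefSeq.

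CPM used the own-strand total. The pups were compared with edgeR 4.0.16 TMM factors in R 4.3.3, 0.5 added to each count, and exact two-sided binomial tests (scipy 1.17.1). edgeR's quasi-likelihood test needs 2 groups and was not run. The exact binomial test was tried on simulated counts for the 373 genes, with Poisson error alone. It recovered 73 of 89 genes changed 2-fold and 96 of 99 changed 4-fold (adjusted p under 0.05, right direction). Of 170 unchanged genes, 1 was called under the stricter rule that also asks for at least a 2-fold difference. The named genes were the 3 genes, the list members, genes with a shared seed or within 50 kb, and the 3 nearest in level per gene. The members and lists were chosen with earlier results of these data known. Each library is 1 pup, so differences between pups, dissection and library preparation cannot be told apart.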

Additional observations from a re-analysis of the deposited data

Results flagged for a closer look

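Counts outside the main measurement lay on the strand opposite 4 listed genes, at the places of list members that were not themselves counted, and above the limit that 0 counts allow. Opposite Mir497b, at the place of the quiescence-linked Mir497, they averaged 603 ± 95.9 CPM (SD, n = 2). Opposite Mir142b, at the place of Mir142, they averaged 726 ± 179 CPM, opposite Mir3074-1, at that of Mir24-1, 40.9 ± 3.60 CPM, and opposite Mir1b, at that of Mir1a-2, 14.9 ± 1.19 CPM.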

How the results depend on the processing

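Signs of the 3 genes' log2 ratios were the same under every alternative run. Ranges were -0.31 to -0.17 for Mir489, 0.70 to 0.84 for Mir653 and -0.21 to -0.08 for Mir31. These runs use the same counts of the 3 genes, so equal signs do not speak to counting error. The main intervals of Mir489 (-1.62 to 1.31) and Mir31 (-0.38 to 0.21) take in 0, so neither has a direction. Mir653 passed the threshold of the exact binomial test in the main setting (adjusted p = 0.0293) and missed it with scaling by total counts (ratio 0.70, adjusted p = 0.0823) and with no minimum count (ratio 0.83, adjusted p = 0.0507, more genes tested). Mean CPM moves with the denominator by construction. Over all reads it was 1.13 for Mir489, 4.57 for Mir653 and 23.1 for Mir31. Without the 10 most abundant genes it was 4.39, 17.9 and 89.8. Counting both strands gave 39.7 for Mir31. Leaving out pup 1 or pup 2 gave 1.95 to 2.40 for Mir489, 6.66 to 10.9 for Mir653 and 41.1 to 47.7 for Mir31. Genes called higher in pup 2 numbered 2, and 1 with scaling by total counts or with at least 50 counts required. Among list medians the largest shift was 0.27, in the activation list (0.10 in the main setting) without multi-locus genes. The sign changed for the activation list with scaling by total counts (-0.028) and without multi-locus genes (-0.17), and for the nerve list, 1 tested gene, with scaling by total counts (-0.074). Crediting opposite-strand counts to genes that were not counted was chosen after seeing the data. It gave medians of -0.13 for the quiescence, -0.30 for the white blood cell and 0.27 for the striated muscle list. Leaving out a pup gives no ratio. No paired analysis was possible because both libraries belong to the same group. Depth limits Mir489 most, at 9 and 10 counts.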
